A study of Mus musculus with 9 samples.

Results

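The oxysterol-binding protein family was represented by 10 genes, Osbp, Osbpl1a, Osbpl2, Osbpl3, Osbpl5, Osbpl6, Osbpl8, Osbpl9, Osbpl10 and Osbpl11, of 55401 genes in the count table. They were taken by name, and the family was chosen by the read counts of Osbpl3, which were much higher in STAM livers than in chow livers. That contrast is therefore given as a description throughout. All 10 genes had at least 1 count, and 8 had enough counts for the test across genes, which covered 12660 genes. Osbpl6 and Osbpl10 were below the filter on low counts. Another 2 genes of the family in the table, Osbp2 and Osbpl7, were not among the chosen members and are named beside their closest relatives.

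Left liver lobes of male mice were profiled by 3′-end RNA sequencing in 9 libraries, 3 in each of 3 groups. In the STAM + Atglistatin group (replicates 4 to 6), 200 µg of streptozotocin, a toxin of insulin-producing beta cells, was injected under the skin at 2 days of age. A high-fat diet containing Atglistatin then ran for 4 weeks from 4 weeks of age. Atglistatin inhibits adipose triglyceride lipase, the enzyme that starts the breakdown of stored triglyceride. The STAM group (replicates 1 to 3) had the same injection and the same diet without the inhibitor. Mice of the chow group (replicates 7 to 9) had neither streptozotocin, high-fat diet nor inhibitor, so the injection and the diet cannot be told apart in any contrast with chow. The inhibitor was given in the food, so its action was not confined to the liver. The strain is not given in the sources used here.

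Proteins of this family share a lipid-binding domain with which they extract a lipid from one membrane and deliver it to another, mostly where the endoplasmic reticulum lies close to another organelle or to the plasma membrane. Many hold a short motif that binds the VAP proteins of the endoplasmic reticulum, and several bring a sterol or phosphatidylserine forward in exchange for PI4P, a phosphoinositide that is broken down in the endoplasmic reticulum. Much of this was worked out in human cell lines and in yeast. In the liver, which makes, esterifies and exports cholesterol, these proteins are studied for their part in sterol distribution and in the handling of lipid droplets.

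The promoters of Osbpl3, the member with the largest difference between groups, and of Osbp, the founding member, are shown because they carry the same kinds of boxes in different numbers. Sequences are from RefSeq on GRCm38.p6, 5′ to 3′ on the gene's own strand, 250 bases before the transcription start to 50 after it. Capitals mark CCAAT and CCGCCC, the CCAAT box and the GC box, on either strand (ATTGG and GGGCGG on the other).
Osbpl3, chr6:50456121-50456420, minus strand: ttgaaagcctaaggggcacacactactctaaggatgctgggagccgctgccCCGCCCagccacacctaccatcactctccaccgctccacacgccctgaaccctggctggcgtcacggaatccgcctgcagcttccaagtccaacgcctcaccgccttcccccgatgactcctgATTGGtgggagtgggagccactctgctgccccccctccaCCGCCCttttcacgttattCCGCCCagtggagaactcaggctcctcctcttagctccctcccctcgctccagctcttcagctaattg
Osbp, chr19:11965594-11965893, plus strand: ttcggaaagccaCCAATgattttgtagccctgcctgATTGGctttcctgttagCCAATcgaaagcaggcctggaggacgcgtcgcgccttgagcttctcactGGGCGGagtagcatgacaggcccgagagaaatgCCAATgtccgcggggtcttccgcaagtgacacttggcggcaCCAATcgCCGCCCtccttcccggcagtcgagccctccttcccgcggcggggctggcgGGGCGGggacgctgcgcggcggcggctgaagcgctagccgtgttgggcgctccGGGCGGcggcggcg
The Osbpl3 window held 1 CCAAT box, whose first base lay at -76 from the start, and 3 GC boxes, at -199, -37 and -18. The Osbp window held 5 CCAAT boxes and 4 GC boxes. Their GC contents were 62% and 67%, against a median of 52.7% over all 32851 promoters of the same length. The member promoters searched here covered 8 of the 10 members, and Osbpl1a and Osbpl10 were left out. Absence from this set does not show that a member lacks a listed promoter. Of the 12 promoters searched for these 8 members, 8 held a CCAAT box and 9 a GC box. Of all promoters 37.4% held a CCAAT box and 35.7% a GC box. The nuclear receptor core AGGTCA was found in 1 of the 12, of Osbpl2 (16.3% of all promoters), and the E-box CACGTG in 2 of the 12, of Osbpl5 and Osbpl8 (7.15%). The direct repeats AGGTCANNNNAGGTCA and AGGTCANAGGTCA were not in any member window (0.0152% and 0.0396% of all promoters). Both strands were searched for each. These matches describe letters and not binding.

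Libraries held 7409090 to 9911855 counts. Values below are CPM, counts scaled to a common library size (TMM-normalized), unless called counts. Since the method counts 3′ ends, levels are compared between groups and not between genes. In bulk liver, fewer cells of a type and less RNA per cell cannot be told apart. The hepatocyte markers (Alb, Apoa1, Ttr, Hnf4a, Cps1, Fgb and Tat) summed to 69669 to 69877 CPM in STAM + Atglistatin livers, 46609 to 53936 in STAM livers and 88767 to 99988 in chow livers. The mitochondrial share of counts was 9.04% ± 0.600 in STAM + Atglistatin livers, 11.2% ± 0.303 in STAM livers and 7.98% ± 0.738 in chow livers (SD, n = 3 each). Chow replicate 7 stood apart: it was the highest of the 9 libraries in summed recruited-macrophage (162 CPM), stellate-cell (703 CPM) and cholangiocyte (55.7 CPM) markers, and results that rest on it are given without it too.

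Osbpl3 stood out among the members (ENSMUSG00000029822, GRCm38 chromosome 6, 50293330 to 50456201, minus strand). Its product, ORP3, tethers the endoplasmic reticulum to the plasma membrane, binds VAP proteins and interacts with the small GTPase R-Ras, as worked out in human cells. Osbpl3 had 10.4, 11.1 and 11.0 CPM in STAM + Atglistatin livers, 17.0, 19.6 and 15.3 CPM in STAM livers and 2.57, 2.17 and 0.443 CPM in chow livers. The groups did not overlap: the STAM libraries were highest, the STAM + Atglistatin libraries lay between, and the chow libraries were lowest. The raw counts behind these values were 104, 107 and 102 in STAM + Atglistatin livers, 154, 166 and 127 in STAM livers and 25, 18 and 3 in chow livers. Between STAM + Atglistatin and STAM, values did not overlap in 17% of all tested genes. That share was 18.6% between STAM + Atglistatin and chow and 20.7% between STAM and chow.

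Because these levels chose the family, the differences of Osbpl3 are described with no test. Means were 10.8 ± 0.360 CPM in STAM + Atglistatin livers, 17.3 ± 2.18 CPM in STAM livers and 1.73 ± 1.13 CPM in chow livers (SD, n = 3 each). The log2 fold change was -0.67 ± 0.32 (SE) in STAM + Atglistatin against STAM, so that the level with the inhibitor was 62.7% of the STAM level. In STAM + Atglistatin against chow it was 2.58 ± 0.37, or 5.99-fold, and in STAM against chow 3.26 ± 0.37, or 9.55-fold. The 3 contrasts share libraries pairwise, so they are not independent of each other.

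The size of both folds against chow depended on chow replicate 9, in which only 3 counts were seen. Its exact Poisson interval was 0.0914 to 1.30 CPM, against 1.67 to 3.80 CPM in chow replicate 7 and 1.29 to 3.43 CPM in chow replicate 8 (95%, counting error only). Without chow replicate 9 the log2 fold change was 2.18 in STAM + Atglistatin against chow and 2.86 in STAM against chow. Without chow replicate 7 these were 2.98 and 3.65. The difference between STAM + Atglistatin and STAM lay between -0.75 and -0.57 over all 15 alternative settings. The mitochondrial share had the same order of groups as Osbpl3, and the hepatocyte marker sum had the reverse order. Most of that sum was Alb, at 45727, 29475 and 60367 CPM in STAM + Atglistatin, STAM and chow livers. Against STAM, log2 fold changes with the inhibitor were 0.63 for Alb and 0.35 for Ttr. Apoa1 (0.035), Hnf4a (0.064), Cps1 (-0.21), Fgb (-0.045) and Tat (-0.097) changed less, in both directions. The part of the mitochondrial share and of the hepatocyte markers in the Osbpl3 levels was not tested. Summed Kupffer-cell markers (8 genes) were 388 to 528 CPM in STAM + Atglistatin livers, 423 to 495 CPM in STAM livers and 344 to 453 CPM in chow livers, and the 3 groups overlapped. Summed recruited-macrophage markers (7 genes) overlapped as well, at 94.0 to 138 CPM, 81.7 to 113 CPM and 81.8 to 162 CPM in the same groups. Most of this last sum was Lyz2, at means of 87.3, 69.2 and 94.8 CPM. In STAM against chow, as a description, log2 fold changes were -0.45 for Lyz2 and -0.51 for Cd9. Trem2 (1.83), Gpnmb (0.88), Itgax (0.87), Ccr2 (0.73) and Cx3cr1 (0.26) went the other way, and 0 of the 7 passed with edgeR. The part of these markers in the Osbpl3 levels was not tested.

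**Figure D1:**
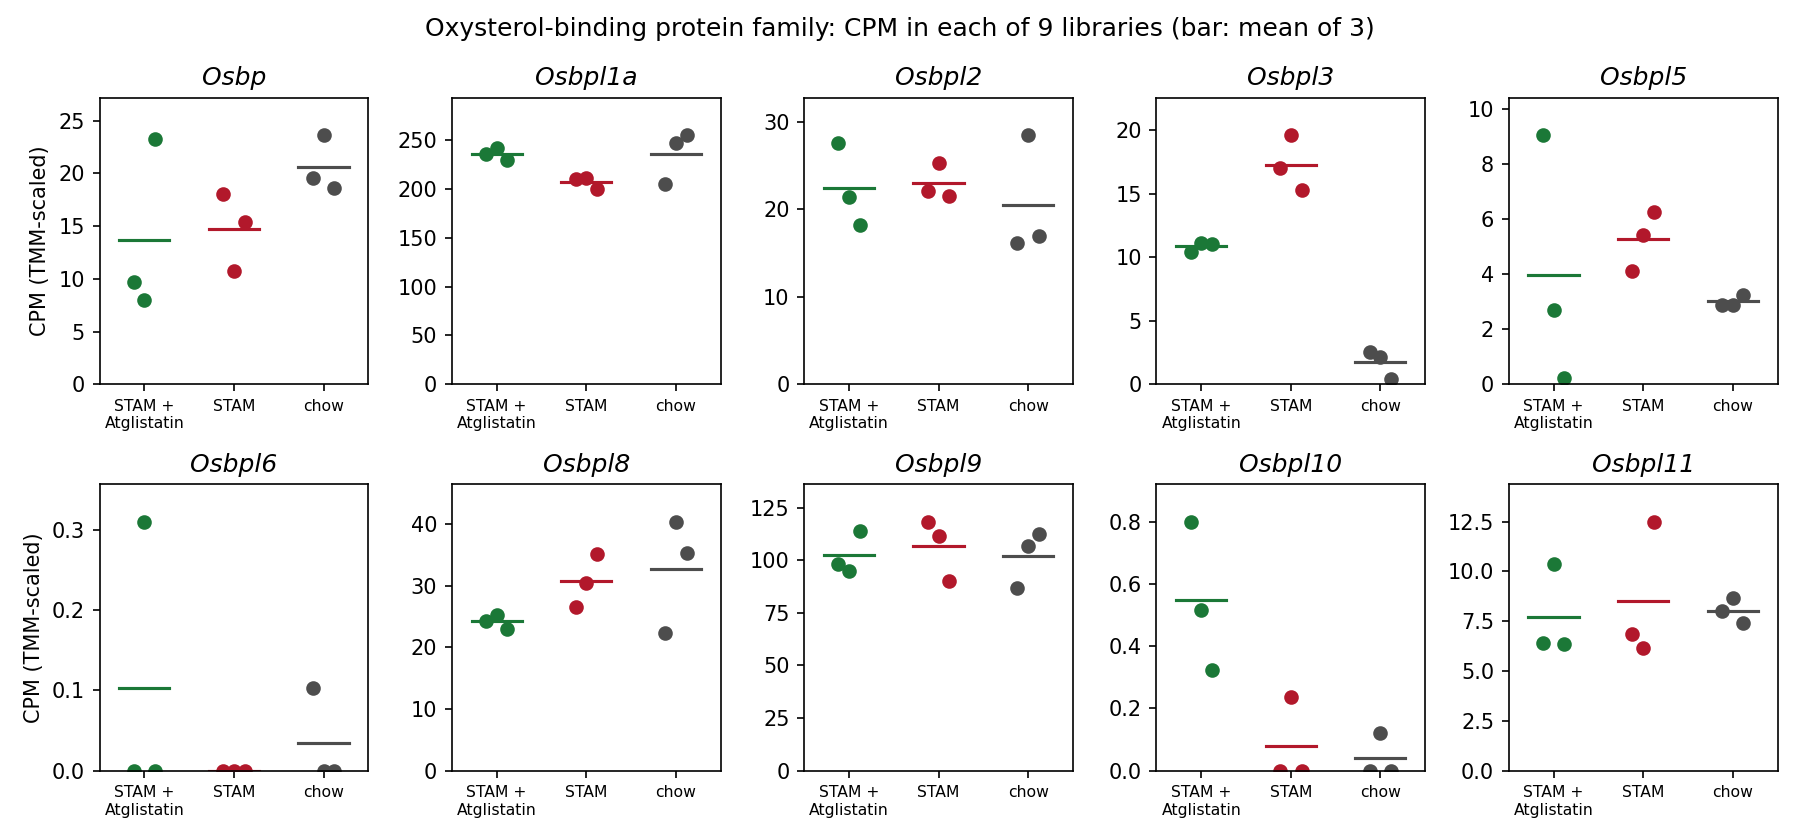
CPM of each family member in every library, on its own axis, for STAM + Atglistatin, STAM and chow livers, with a line at each group mean. Osbpl3 separates the 3 groups, while Osbpl5 spreads from 0.216 to 9.03 CPM within the STAM + Atglistatin group.

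The closest relatives of Osbpl3 were at low levels. ORP6, the product of Osbpl6 (chromosome 2, 76406508 to 76600647, plus strand), is a close relative of ORP3 best known from brain and macrophages. Osbpl6 had 0, 3 and 0 counts in STAM + Atglistatin livers, none in STAM livers and 1, 0 and 0 counts in chow livers, so that no difference was detectable at this depth. Osbpl7, which encodes the remaining protein of that subfamily, had 1.64 ± 0.754 CPM in STAM + Atglistatin livers, 2.24 ± 0.522 CPM in STAM livers and 1.62 ± 0.785 CPM in chow livers (SD, n = 3 each). It passed neither test, with an adjusted p (edgeR) of 0.906 in STAM + Atglistatin against STAM and 0.989 against chow. The difference between Osbpl3 and Osbpl7 in their response was not tested.

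Osbp (chromosome 19, 11965941 to 11994112, plus strand) encodes the founding member, which exchanges cholesterol for PI4P between the endoplasmic reticulum and the Golgi and binds oxysterols with high affinity. Osbp had 9.73, 7.98 and 23.2 CPM in STAM + Atglistatin livers, 18.0, 10.7 and 15.4 CPM in STAM livers and 19.6, 23.6 and 18.6 CPM in chow livers. Replicate 6 of the STAM + Atglistatin group was as high as the chow libraries, while the other libraries of that group were the lowest of all 9. All 3 STAM libraries lay below all 3 chow libraries.

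In the edgeR quasi-likelihood test with Benjamini-Hochberg adjustment, Osbp passed neither contrast of the inhibitor group. Its log2 fold change was -0.11 ± 0.32 (SE) in STAM + Atglistatin against STAM (95% interval -0.79 to 0.56, adjusted p = 0.959). It was -0.60 ± 0.32 in STAM + Atglistatin against chow (interval -1.27 to 0.07, adjusted p = 0.404). Without STAM + Atglistatin replicate 6 the second of these was -1.22 and passed, with an edgeR adjusted p of 0.0155. Adjusted p ranged from 0.0155 to 0.758 over the 15 alternative settings for that contrast. In STAM against chow the log2 fold change was -0.48 ± 0.32, a description.

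Osbpl1a and Osbpl2 encode ORP1 and ORP2. The long form of ORP1 sits on late endosomes and lysosomes, where it senses cholesterol and steers transport along microtubules, and ORP2 carries cholesterol to the plasma membrane and is found on lipid droplets. Osbpl1a (chromosome 18, 12755314 to 12941841, minus strand) had 235, 242 and 229 CPM in STAM + Atglistatin livers, 210, 212 and 200 CPM in STAM livers and 205, 247 and 255 CPM in chow livers. All 3 STAM + Atglistatin libraries were above all 3 STAM libraries, and the chow libraries spread over both. The log2 fold change in STAM + Atglistatin against STAM was 0.18 ± 0.12 (SE; interval -0.06 to 0.43), which did not pass the edgeR test (adjusted p = 0.676). Against chow the adjusted p was 0.999. An antisense gene, AC102055.1, shares exonic bases with Osbpl1a but had 122 counts over the 9 libraries against 17928 for Osbpl1a.

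Osbpl2 (chromosome 2, 180119306 to 180162680, plus strand) had 27.6, 21.3 and 18.2 CPM in STAM + Atglistatin livers, 22.1, 25.3 and 21.5 CPM in STAM livers and 16.2, 28.4 and 17.0 CPM in chow livers, and the 3 groups overlapped. Neither contrast passed: the log2 fold change was -0.04 ± 0.23 in STAM + Atglistatin against STAM (interval -0.52 to 0.44, edgeR adjusted p = 0.982). Against chow it was 0.12 ± 0.23 (edgeR adjusted p = 0.883).

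Osbpl5 and Osbpl8 encode ORP5 and ORP8, which are anchored in the endoplasmic reticulum and deliver phosphatidylserine to the plasma membrane in exchange for PI4P. Osbpl5 (chromosome 7, 143688762 to 143756985, minus strand) had 90, 26 and 2 counts in STAM + Atglistatin livers, or 9.03, 2.69 and 0.216 CPM. It had 4.09, 5.43 and 6.25 CPM in STAM livers and 2.88, 2.89 and 3.25 CPM in chow livers. The STAM + Atglistatin group held both the highest and the lowest of the 9 libraries, and replicate 6, the lowest, was the library of that group with the most Osbp. The highest value was 41.8 times the lowest in STAM + Atglistatin livers, 1.53 times in STAM livers and 1.13 times in chow livers.

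With that spread the tests of Osbpl5 resolve little. Its log2 fold change was -0.39 ± 0.67 in STAM + Atglistatin against STAM (interval -1.81 to 1.02, edgeR adjusted p = 0.920) and 0.41 ± 0.69 against chow (interval -1.04 to 1.87, edgeR adjusted p = 0.865). Both directions depended on single libraries. Without STAM + Atglistatin replicate 4 the values were -1.84 against STAM and -1.03 against chow, and without replicate 6 they were 0.16 and 0.96. The STAM libraries were all above the chow libraries, with a log2 fold change of 0.80 ± 0.69, a description.

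Osbpl8 (chromosome 10, 111164752 to 111297249, plus strand) had 24.3, 25.3 and 23.0 CPM in STAM + Atglistatin livers, 26.5, 30.3 and 35.1 CPM in STAM livers and 22.2, 40.4 and 35.3 CPM in chow livers. All STAM + Atglistatin libraries were below all STAM libraries, and chow replicate 7 was below them too. Neither contrast passed: the log2 fold change was -0.34 ± 0.20 against STAM (interval -0.77 to 0.09, edgeR adjusted p = 0.635) and -0.43 ± 0.20 against chow (interval -0.86 to 0.00, edgeR adjusted p = 0.338). Without chow replicate 7, the library that stood apart in its cell markers, the value against chow was -0.65 and passed, with an edgeR adjusted p of 0.0437. The range over the 15 settings of that contrast was 0.0437 to 0.729.

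Osbpl9, Osbpl10 and Osbpl11 encode ORP9, ORP10 and ORP11. ORP9 works between the endoplasmic reticulum and the Golgi and pairs with ORP10 or ORP11, as worked out in human cells. Osbpl9 (chromosome 4, 109061145 to 109202272, minus strand) had 98.2, 95.01 and 114 CPM in STAM + Atglistatin livers, 118, 111 and 90.4 CPM in STAM livers and 87.0, 107 and 112 CPM in chow livers. The groups overlapped, and its log2 fold change was -0.06 ± 0.14 in STAM + Atglistatin against STAM (interval -0.36 to 0.24, edgeR adjusted p = 0.945) and 0.01 ± 0.14 against chow (edgeR adjusted p = 0.991). The 3′ end of Osbpl9 overlaps that of Nrd1 on the other strand by 633 bases. Whether the counting used strand is not given in the sources used here, so reads of both genes there cannot be told apart. Nrd1 passed in neither contrast, at 79.5 ± 12.1 CPM in STAM + Atglistatin livers, 74.8 ± 13.8 CPM in STAM livers and 78.4 ± 4.44 CPM in chow livers (SD, n = 3 each).

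Osbpl11 (chromosome 16, 33185071 to 33243312, plus strand) had 6.42, 10.4 and 6.38 CPM in STAM + Atglistatin livers, 6.86, 6.14 and 12.5 CPM in STAM livers and 8.03, 8.68 and 7.39 CPM in chow livers. A single high library in each of the first 2 groups set their spread. The log2 fold change was -0.14 ± 0.32 against STAM (interval -0.82 to 0.54, edgeR adjusted p = 0.947) and -0.06 ± 0.32 against chow (edgeR adjusted p = 0.961).

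Osbpl10 (chromosome 9, 114978569 to 115232225, plus strand) was near the limit of detection. It had 8, 5 and 3 counts in STAM + Atglistatin livers, 0, 2 and 0 counts in STAM livers and 0, 1 and 0 counts in chow livers. All STAM + Atglistatin libraries were above all others, on 16 counts in all. The ratio of CPM-scaled sums was 7.16 against STAM (exact interval 1.68 to 64.2) and 13.7 against chow (2.13 to 576), where the intervals cover counting error only and not the spread between livers. In the edgeR fit with no filter on low counts, the adjusted p was 0.798 in STAM + Atglistatin against STAM and 0.633 against chow.

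Leaving out Osbpl3, whose levels chose the family, 0 of the other 7 tested members passed in STAM + Atglistatin against STAM, where 1.79% of all 12660 genes did (1.04% higher and 0.742% lower). Against chow 0 of 7 passed as well, beside 4.08% of all genes (2.1% higher and 1.97% lower). DESeq2 and limma-voom called 0 of 7 in both contrasts, and 0 of 7 had an unadjusted edgeR p under 0.05, which 10.2% of all genes had against STAM and 14.8% against chow. Values of STAM + Atglistatin and STAM did not overlap in 2 of the 7 (Osbpl1a higher, Osbpl8 lower), beside 17% of all genes (8.58% higher and 8.45% lower). Values of STAM + Atglistatin and chow overlapped in all 7, beside 18.6% of all genes that did not overlap (9.6% higher and 9.03% lower). In STAM against chow, as a description, values did not overlap in 2 of the 7 (Osbpl5 higher, Osbp lower), beside 20.7% of all genes (10.6% higher and 10.2% lower). The median log2 fold change over all 8 fitted members, Osbpl3 included, was -0.12, 0.0023 and 0.073 in these 3 contrasts in that order, beside -0.00071, -0.0041 and -0.0014 over all genes.

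**Figure D2:**
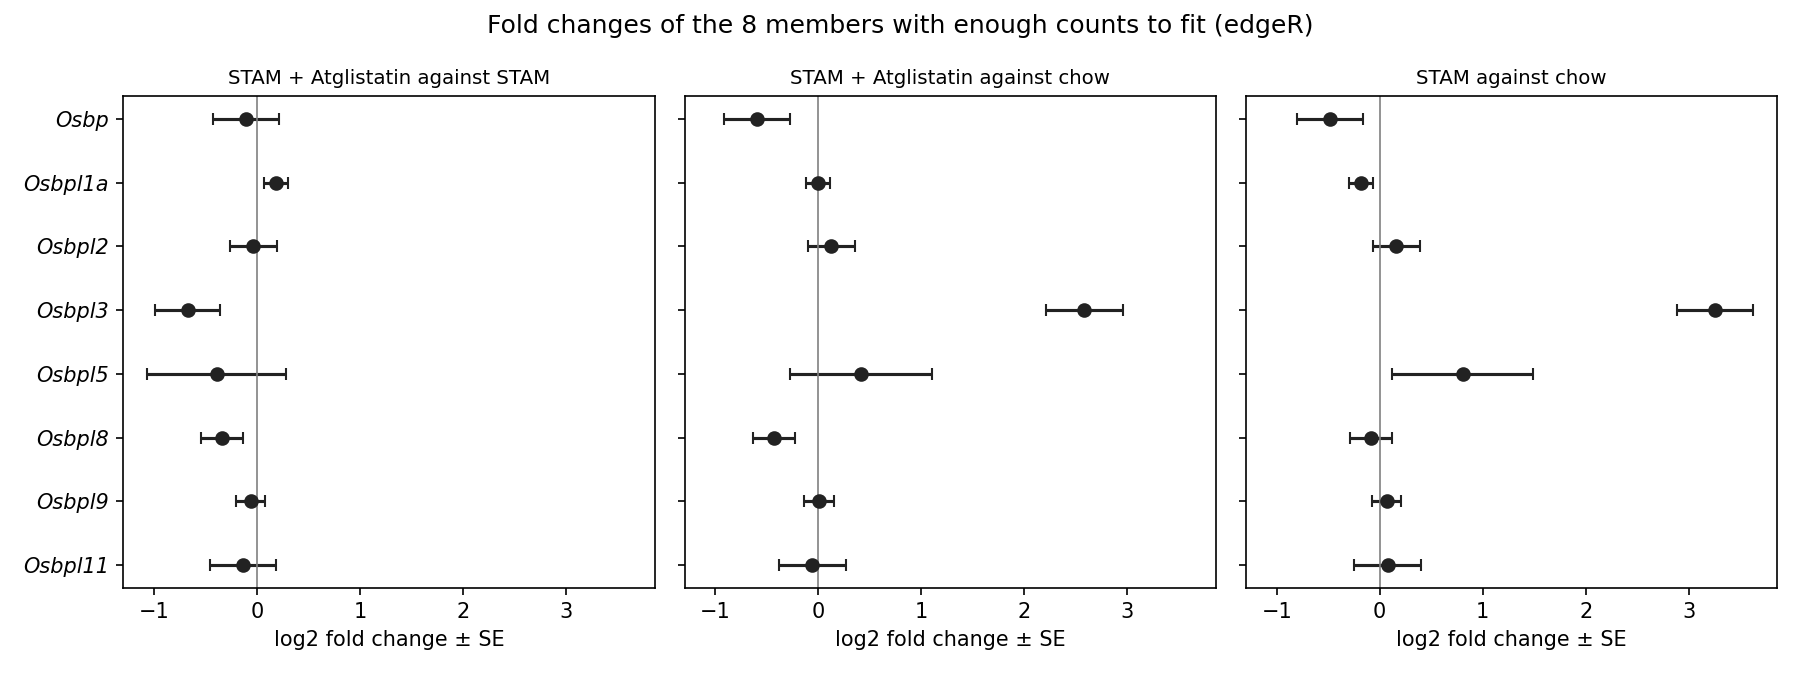
Log2 fold change of each tested member with its standard error, in STAM + Atglistatin against STAM, STAM + Atglistatin against chow, and STAM against chow. Osbpl3 lies at -0.67, 2.58 and 3.26, and the next in size is Osbpl5 in STAM against chow, at 0.80.

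The genes whose pattern was nearest to that of Osbpl3 were sought over the 9 libraries, by the root mean square difference of log2 CPM after subtracting each gene's own mean. The nearest 8 were Pvt1, Krt23, Themis, Cd36, Cyp4a14, Rbm24, Cyp4a10 and Ankrd13b, at 0.41 to 0.69, against a median of 1.60 over all genes. Chow means of Rbm24 and Ankrd13b were 0.034 and 0.069 CPM, below the 0.103 CPM of 1 count in chow replicate 7. The prior count added before taking logs therefore largely set their chow values in this distance. Cd36, which encodes a fatty acid transporter and scavenger receptor, had 97.1 ± 14.8 CPM in STAM + Atglistatin livers, 94.3 ± 7.97 CPM in STAM livers and 19.6 ± 6.23 CPM in chow livers (SD, n = 3 each). Cyp4a14, a fatty acid omega-hydroxylase and textbook target of PPARα, had 1452 ± 123 CPM in STAM + Atglistatin livers, 988 ± 279 CPM in STAM livers and 120 ± 69.0 CPM in chow livers (SD, n = 3 each). Its relative Cyp4a10 had 1027 ± 231, 1116 ± 297 and 242 ± 68.7 CPM in the same groups. Copies of the Cyp4a genes are similar enough that reads may be split between them.

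Not all of these genes had the intermediate level of Osbpl3 with the inhibitor. The means of Cd36, Cyp4a14 and Rbm24 were highest in STAM + Atglistatin livers, those of Rbm24 being 1.69, 1.32 and 0.034 CPM in STAM + Atglistatin, STAM and chow livers. Krt23, Themis and Ankrd13b did have intermediate means, those of Ankrd13b being 1.07, 1.88 and 0.069 CPM in the same order of groups. Cyp4a10 and Pvt1 also lay between, with means close to those in STAM livers. The keratin gene Krt23 had 17.0 ± 3.64 CPM in STAM + Atglistatin livers, 40.0 ± 11.5 CPM in STAM livers and 5.78 ± 3.39 CPM in chow livers (SD, n = 3 each). The T-cell gene Themis had 5.37 ± 3.13, 14.3 ± 1.81 and 0.693 ± 0.631 CPM in the same groups, again between STAM and chow. Summed lymphocyte markers (Cd3e, Cd79a, Ms4a1, Nkg7 and Ptprc) were 12.02 to 13.8 CPM in STAM + Atglistatin livers, 10.3 to 12.5 CPM in STAM livers and 8.44 to 11.7 CPM in chow livers. Most of this sum was Ptprc, at means of 11.0, 10.1 and 8.49 CPM, and only 1 of the 5 genes had enough counts for the test. Cd79a was at 0 in the first 2 groups. The part of these markers in the Themis levels was not tested. The long non-coding RNA Pvt1, nearest of all, had 3.88 ± 0.529, 4.20 ± 0.881 and 0.416 ± 0.242 CPM, with means close to each other in the first 2 groups. Membership of this set was loose: 4 of the 8 were still among the nearest 8 with a smaller prior count of 0.5, 3 without chow replicate 7 and 2 without chow replicate 9. No other family member was near Osbpl3. The nearest was Osbpl2, at 1.49 and rank 2639 of 12659 genes, and the farthest was Osbp, at 1.87 and rank 11480. The distance includes the difference from chow by which Osbpl3 was chosen, so these ranks are a description.

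**Figure D3:**
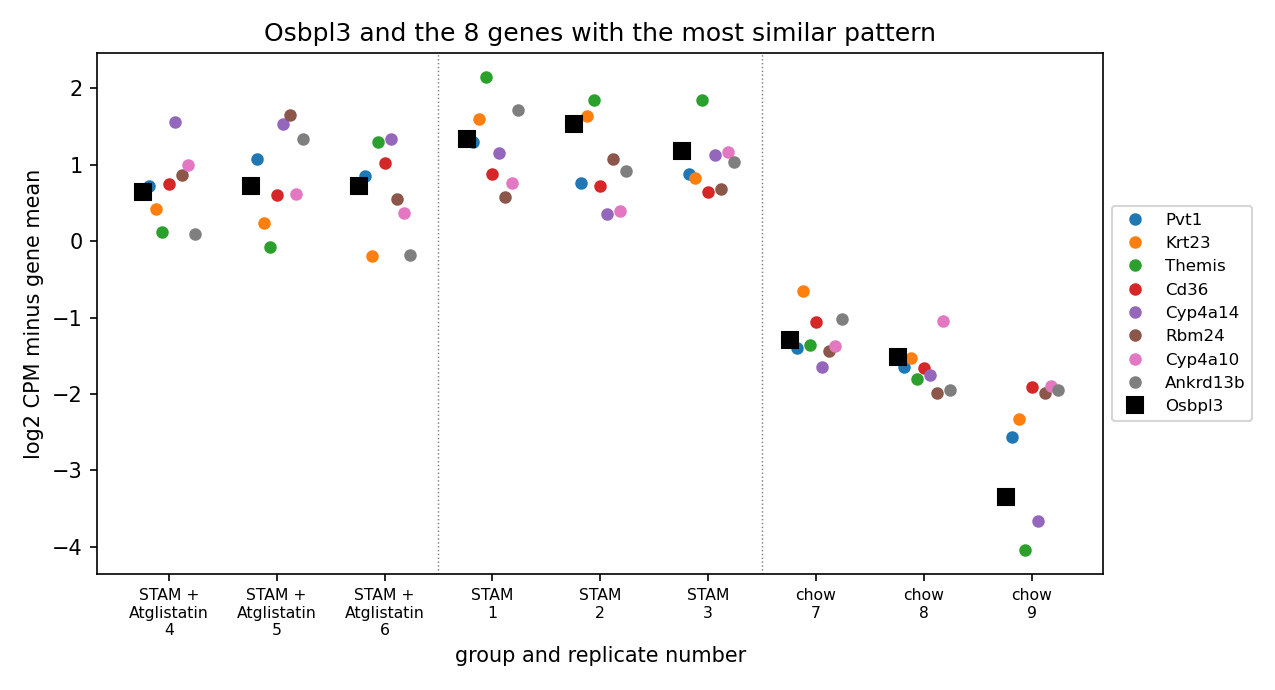
Log2 CPM minus each gene's mean, in every library, for Osbpl3 (black squares) and the 8 genes nearest to it in pattern (coloured points). All 9 genes are lowest in the chow libraries, and Osbpl3 reaches its lowest value, -3.35, in chow replicate 9.

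None of the family's partners passed in the contrasts of STAM + Atglistatin with STAM and with chow. The VAP tethers and genes of PI4P metabolism included Vapa, Vapb, the PI4P phosphatase gene Sacm1l and the PI4P kinase genes. Of 17 tested genes, 0 passed in STAM + Atglistatin against STAM, beside 1.79% of all genes, and 0 against chow, beside 4.08%. DESeq2 and limma-voom also called 0 of these 17. In each contrast 1 had an unadjusted edgeR p under 0.05, which 10.2% of all genes had against STAM and 14.8% against chow. The median log2 fold changes were 0.015 and 0.088, beside -0.00071 and -0.0041 over all genes. The R-Ras genes, Rras, Rras2 and Mras, had 0 of 3 passing in each contrast with edgeR, DESeq2 and limma-voom alike, and edgeR's unadjusted p was under 0.05 for 0 of them. Rras had 15.8 ± 5.95 CPM in STAM + Atglistatin livers, 11.6 ± 2.74 CPM in STAM livers and 21.2 ± 3.05 CPM in chow livers (SD, n = 3 each). All STAM libraries were below all chow libraries for Rras, with a log2 fold change of -0.87 ± 0.26 in STAM against chow, a description. It was called lower in that contrast by DESeq2 and by limma-voom and not by edgeR. Rras2 had 18.8 ± 3.99, 18.2 ± 1.97 and 19.6 ± 2.10 CPM and Mras had 9.02 ± 5.69, 8.60 ± 3.55 and 7.05 ± 2.14 CPM in the same order of groups.

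Of the other lipid transfer proteins, 1 of 24 tested genes rose in STAM + Atglistatin against STAM and 2 of 24 rose against chow, with none lower. Over all genes 1.04% were higher and 0.742% lower against STAM, and 2.1% higher and 1.97% lower against chow. Stard4, which carries cholesterol between membranes, was higher with the inhibitor, at 81.6 ± 16.9 CPM in STAM + Atglistatin livers against 44.6 ± 7.98 CPM in STAM livers and 111 ± 29.1 CPM in chow livers (SD, n = 3 each). The log2 fold change against STAM was 0.87 ± 0.20 (edgeR adjusted p = 0.0283). That call was lost when STAM + Atglistatin replicate 4 or 5, or any of the 3 STAM libraries, was left out, with adjusted p up to 0.177 over the alternatives. Pctp, the phosphatidylcholine transfer protein gene, was higher against chow at 150 ± 3.87 CPM in STAM + Atglistatin livers, 122 ± 2.54 CPM in STAM livers and 91.4 ± 8.82 CPM in chow livers. The difference from chow was 0.71 ± 0.12 on the log2 scale (edgeR adjusted p = 0.00152) and passed in all 15 alternatives. Stard5 also passed against chow, at 0.58 ± 0.14 (edgeR adjusted p = 0.0234). It was lost in 5 of 15 alternatives, among them without STAM + Atglistatin replicate 4 or 5 and without chow replicate 7 or 8, and it shares exonic bases with Gm45838 and Il16.

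Enzymes that make and clear oxysterols, the lipids for which the family is named, passed in both directions. Of 7 tested genes, 1 was higher and 1 lower in STAM + Atglistatin against STAM, and 1 was higher and 1 lower against chow. Over all genes 1.04% were higher and 0.742% lower in the first of these contrasts, and 2.1% and 1.97% in the second. DESeq2 and limma-voom called 2 higher and 1 lower against STAM. Cyp7b1, the oxysterol hydroxylase of the alternative bile acid pathway, had 43.3 ± 8.41 CPM in STAM + Atglistatin livers, 167 ± 18.8 CPM in STAM livers and 195 ± 45.6 CPM in chow livers (SD, n = 3 each). It fell by 1.94 ± 0.18 on the log2 scale against STAM (edgeR adjusted p = 4.26e-06) and by 2.17 ± 0.18 against chow (edgeR adjusted p = 6.50e-07). Cyp39a1, another oxysterol hydroxylase, had 11.7 ± 3.97 CPM in STAM + Atglistatin livers, 2.85 ± 0.950 CPM in STAM livers and 7.94 ± 0.461 CPM in chow livers. On the log2 scale the change against STAM was 2.03 ± 0.35 (edgeR adjusted p = 0.00251). Cyp3a11, a cytochrome with many substrates, was higher against chow, at 1511 ± 177 CPM in STAM + Atglistatin livers and 621 ± 264 CPM in chow livers (log2 fold change 1.28 ± 0.20, edgeR adjusted p = 0.000882). Similar Cyp3a genes may share its reads. These 4 calls passed in all 15 alternatives. Between STAM and chow livers, as a description, 3 genes of the list were lower and 1 higher past the edgeR threshold, where 3.94% of all genes passed (1.95% higher and 1.99% lower). The lower ones were Cyp39a1, the sterol hydroxylase gene Cyp27a1 and Hsd11b1, and the higher one was Cyp3a11. Cyp27a1 had 334 ± 26.6 CPM in STAM livers and 523 ± 75.3 CPM in chow livers, and Hsd11b1 had 242 ± 23.1 CPM and 404 ± 110 CPM. In this contrast limma-voom called 3 genes of the list lower and 1 higher, while DESeq2 called 3 lower and 0 higher.

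Among the oxysterol sensors, 1 of 6 tested genes was higher in STAM + Atglistatin against STAM, and 2 of 6 were lower against chow. Over all genes 1.04% were higher in the first contrast and 1.97% lower in the second. Insig1, which holds the SREBP escort Scap in the endoplasmic reticulum when sterols are plentiful, had 129 ± 18.7 CPM in STAM + Atglistatin livers, 46.7 ± 4.24 CPM in STAM livers and 143 ± 29.4 CPM in chow livers (SD, n = 3 each). Its log2 fold change against STAM was 1.46 ± 0.16 (edgeR adjusted p = 2.45e-05), and it passed in all 15 alternatives. Scap itself was lower against chow, at 92.5 ± 1.59 CPM in STAM + Atglistatin livers, 88.9 ± 11.7 CPM in STAM livers and 153 ± 15.9 CPM in chow livers, a log2 difference of -0.72 ± 0.13 (edgeR adjusted p = 0.00297). Insig2 was lower against chow (log2 difference -0.71 ± 0.17, edgeR adjusted p = 0.0237), but was lost in 5 of 15 alternatives, without STAM + Atglistatin replicate 4 or 5 or chow replicate 9 among them, with adjusted p up to 0.128. The liver X receptor genes, the best known oxysterol receptors, passed in neither contrast. Nr1h3 had 109 ± 4.16 CPM in STAM + Atglistatin livers, 106 ± 14.8 CPM in STAM livers and 106 ± 1.31 CPM in chow livers.

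**Figure D4:**
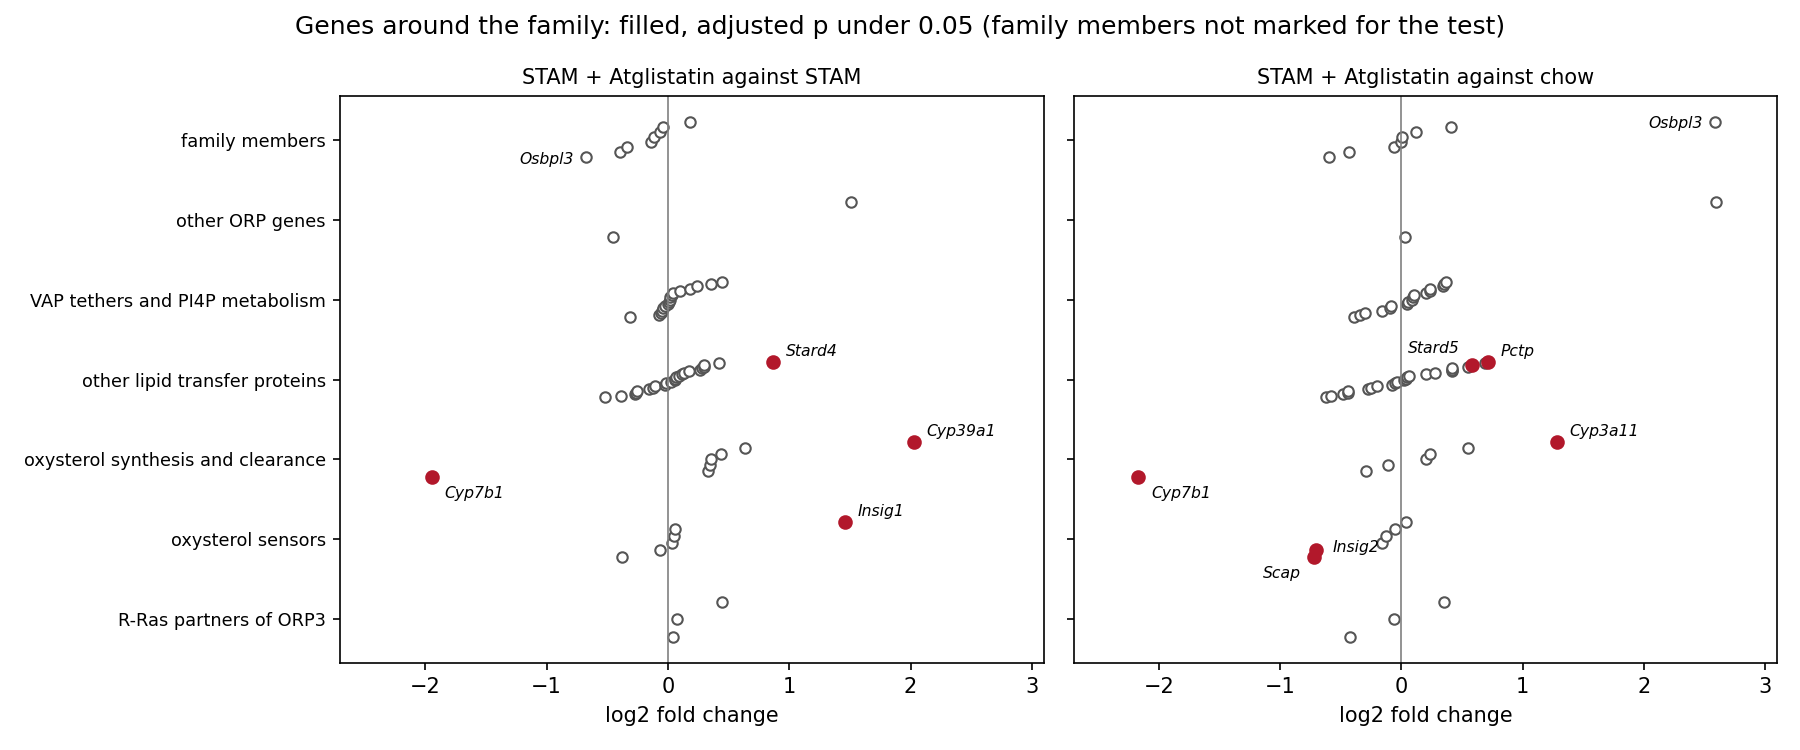
Log2 fold change of every tested gene of the family and of the surrounding gene lists, in STAM + Atglistatin against STAM and against chow. Filled points had an adjusted p under 0.05 in the edgeR test, and family members are drawn open throughout. Cyp7b1 lies lowest in both panels, at -1.94 and -2.17, and the VAP and PI4P genes lie close to 0.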

How the data were processed

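Left liver lobe RNA was sequenced with a 3′-end kit (QuantSeq), per the labels' protocols. Reads were aligned with STAR to GRCm38, per the submitters' processing notes. Not given in the sources used here are the STAR version, the counting tool, its use of strand and its handling of multi-mapped reads. The authors deposited 1 table with the unnormalized count of each gene in each of 9 libraries. The authors' own fold changes and p-values were not used. Groups came from the sample titles and the design text. Chow and STAM samples carry a treatment entry that conflicts with these, and it was disregarded. The labels number the samples without stating that each is a separate mouse, so p-values measure the spread between these samples.

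The 7 ribosomal RNA entries (0.260 to 0.529% of counts) were left out. Tests of the counts used edgeR 4.0.16 under R 4.3.3 (TMM, filterByExpr, 12660 genes, 1 quasi-likelihood fit to 9 libraries, Benjamini-Hochberg adjustment over all tested genes, threshold 0.05). Checks on simulated data preceded the tests. Alternatives were DESeq2 1.42.0, its size factors, library totals, limma 3.58.1 voom with sample weights, no filter, only the 2 groups compared, a fold threshold and each library left out. Positions are from GENCODE M21 and promoters from RefSeq. The members and gene lists were chosen with earlier results of these data known. Genes named were all members, the up to 4 genes of each list with the smallest p that passed in a contrast with STAM + Atglistatin, the whole of the 2 shortest lists, and the 8 genes nearest to Osbpl3 in pattern, on log2 CPM with a prior count of 2. Nrd1, Nr1h3, Cyp27a1, Hsd11b1 and the PI4P genes were named outside that rule. A gene of the sensor list is not reported here.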

Additional observations from a re-analysis of the deposited data

How the results depend on the processing

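No paired analysis was possible because the replicate numbers of the 3 groups do not repeat. Osbpl3 kept its direction in every contrast under all 15 alternatives. Genes passing numbered 226 in STAM + Atglistatin against STAM, 516 in STAM + Atglistatin against chow and 499 in STAM against chow. Asking also for a log2 fold change of 1 or more in size left 123, 256 and 230. With no filter on low counts there were 392 in the first, and with 1 library left out there were 131 to 332, 309 to 757 and 291 to 724. Of the 7 tested members other than Osbpl3, 0 to 1 passed in STAM + Atglistatin against chow with 1 library left out, the 1 being Osbp without STAM + Atglistatin replicate 6 or Osbpl8 without chow replicate 7. Of the recomputed member fold changes in both contrasts of STAM + Atglistatin, these 2 passed newly and 26 changed sign with no call before or after. In STAM against chow, Osbpl8 (-0.31 to 0.099), Osbpl9 (-0.037 to 0.17) and Osbpl11 (-0.31 to 0.27) changed sign under some alternatives. In STAM + Atglistatin against STAM, leaving out 1 library gave log2 fold changes of -0.73 to 0.16 for Osbp, -0.22 to 0.091 for Osbpl2, -1.84 to 0.16 for Osbpl5, -0.17 to 0.018 for Osbpl9 and -0.41 to 0.25 for Osbpl11. Against chow they were -0.094 to 0.057 for Osbpl1a, -0.059 to 0.43 for Osbpl2, -1.03 to 0.96 for Osbpl5, -0.100 to 0.078 for Osbpl9 and -0.33 to 0.060 for Osbpl11. With limma-voom, Osbpl11 was 0.0035 against STAM, and Osbpl5 was -0.50 and Osbpl9 -0.053 against chow. Library totals gave 0.090 for Osbpl1a and 0.024 for Osbpl11 against chow, and Osbpl1a was 0.00034 with DESeq2 and 0.00082 with only the 2 groups compared. The cause of these changes was not tested, and leaving out 1 library also lowers the number of libraries. Of the 8 genes nearest to Osbpl3, 2 to 7 were still among the nearest 8 with 1 library left out and 4 with a prior count of 0.5. Depth limits Osbpl6 and Osbpl10, and the 3 counts of Osbpl3 in chow replicate 9.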

Other observations

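Osbp2, which encodes ORP4, the closest relative of OSBP, was not among the chosen members and had a spread like that of Osbpl5, seen after its values were known. It had 60, 39 and 3 counts in STAM + Atglistatin livers, 9, 7 and 15 counts in STAM livers and 4, 8 and 2 counts in chow livers. As with Osbpl5, replicate 4 was the highest and replicate 6 the lowest of the STAM + Atglistatin libraries. Replicate 6 of Osbp2 was within the range of the chow libraries. Its log2 fold change was 1.51 ± 0.84 in STAM + Atglistatin against STAM (SE, edgeR adjusted p = 0.592) and 2.60 ± 0.90 against chow (edgeR adjusted p = 0.144), so neither passed. Whether the 2 genes move together in further livers cannot be told from 3 libraries.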
